A study of Homo sapiens with 10 samples.

Results

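Expression of imprinted genes was compared between the human colorectal cancer line HCT116 and DNMT1 KO cells, which were derived from it. The set was a fixed list of 40 imprinted genes, found by symbol among the 58884 genes of the deposited count tables. The members were grouped by imprinted locus and by the parental allele each is known to be expressed from, which gave 24 paternally expressed genes, 9 maternally expressed genes and 5 genes whose imprinting depends on the isoform, plus IGF2R, imprinted in some people only, and TRAPPC9, for which it is not settled. The allele is background knowledge: the counts are sums over both alleles and were not phased, so no value below says which parental copy was read.

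RNA-seq libraries of HCT116 (6 libraries, replicates 1, 2, 3, 7, 8 and 9) and of DNMT1 KO (4 libraries, replicates 1 to 4) were compared. The DNMT1 KO line was made by targeting DNMT1, whose enzyme maintains DNA methylation through cell division, and according to the study it is hypomorphic, with a truncated DNMT1 protein still produced. It is a single line and neither group had any treatment named. The study describes the libraries as independent cultures, so p-values measure the spread between cultures of 1 line in each group. Batch 1 holds replicate 1 of each group and batch 2 holds replicates 2 and 3 of each group, while DNMT1 KO replicate 4 is alone in batch 3 and HCT116 replicates 7 to 9 form batch 4.

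Genomic imprinting is the expression of a gene from the copy of a single parent. The copies are told apart by DNA methylation laid down in the egg or the sperm at an imprinting control region, and after fertilisation this methylation is copied at each cell division by DNMT1, while KRAB zinc finger proteins such as ZFP57 protect it. Most control regions are methylated on the maternal copy, and a few, including those of H19/IGF2 and of DLK1/MEG3, on the paternal copy. Imprinted genes often act in fetal growth, in the placenta and in the brain, and many are little used in adult epithelium.

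The HCT116 libraries held between 35418732 and 85991812 counts each, and the DNMT1 KO libraries between 26700853 and 55732013. DNMT1 itself was at 153 ± 64.2 CPM (counts scaled to a common library total of 1e+06; SD, n = 6) in HCT116 and at 19.5 ± 3.68 CPM (SD, n = 4) in DNMT1 KO (log2 fold change -2.97, SE 0.33, adjusted p = 1.74e-05, edgeR). All levels are CPM on library totals scaled by TMM, a normalization that assumes most genes do not change, and every fold change is DNMT1 KO against HCT116 on the log2 scale. Tests are edgeR's quasi-likelihood test over all 19279 genes that passed its filter on low counts, with Benjamini-Hochberg adjustment, and calls required an adjusted p under 0.05 together with a log2 fold change above 1 or below -1. Over all genes tested, 1431 (7.42%) were called higher and 1251 (6.49%) lower in DNMT1 KO. With library totals alone in place of TMM the split was 1878 higher and 956 lower, and the median of all genes moved from -0.07 to 0.14.

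Of the 40 imprinted genes, 27 passed the filter on low counts and 13 did not. The 27 comprised 6 called higher in DNMT1 KO (IGF2, DLK1, RTL1, PEG10, NAP1L5 and DDC), 2 called lower (DIRAS3 and TRAPPC9) and 19 not called. These counts stand beside backgrounds of 7.42% of all genes tested called higher and 6.49% called lower. Since some members passed the filter only through the group in which they were high, the counts describe the list and support nothing by themselves. Every DNMT1 KO library lay above every HCT116 library for 6 of the 27, the same 6 genes (8.40% of all genes tested), and below for 1, DIRAS3 (6.79% of all genes tested). The median log2 fold change of the 27 was -0.08, against -0.07 over all genes tested. In these bulk libraries more cells with an RNA and more RNA per cell cannot be told apart.

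**Figure D1:**
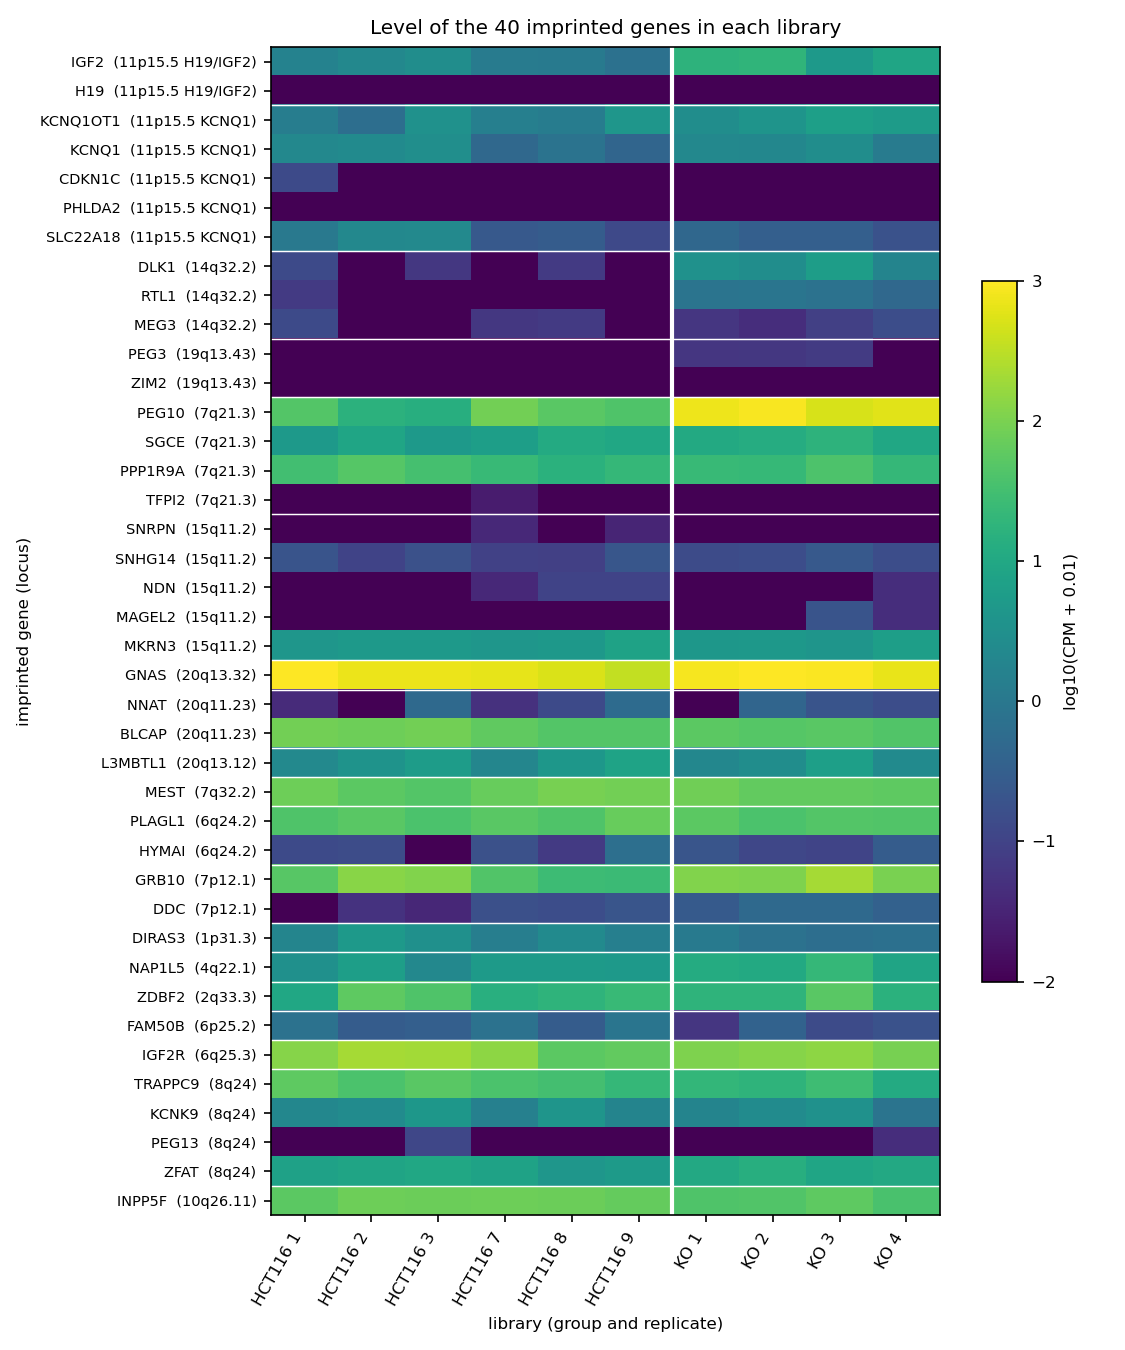
Level of each of the 40 imprinted genes (rows, ordered by locus) in each of the 10 libraries (columns, 6 HCT116 and then 4 DNMT1 KO), as log10(CPM + 0.01) on a colour scale. GNAS and, in DNMT1 KO, PEG10 were the brightest rows; IGF2, DLK1, RTL1 and PEG10 turned brighter at the border between the groups, and rows such as H19, PHLDA2 and ZIM2 were dark throughout.

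By expressed allele, 16 of the 24 paternally expressed genes were tested, of which 5 were called higher (IGF2, DLK1, RTL1, PEG10 and NAP1L5) and 1 lower (DIRAS3), with a median log2 fold change of 0.29. Of the 9 maternally expressed genes 4 were tested, KCNQ1, SLC22A18, PPP1R9A and KCNK9, and 0 were called, with a median of -0.23. Of those 4, 0 had an unadjusted p under 0.05 in the edgeR test and 0 were called by DESeq2. All 5 isoform-dependent genes were tested and 1, DDC, was called higher. A difference between the paternally and the maternally expressed genes was not tested, and 5 of the 9 maternally expressed genes (H19, CDKN1C, PHLDA2, MEG3 and TFPI2) could not contribute a value.

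**Figure D2:**
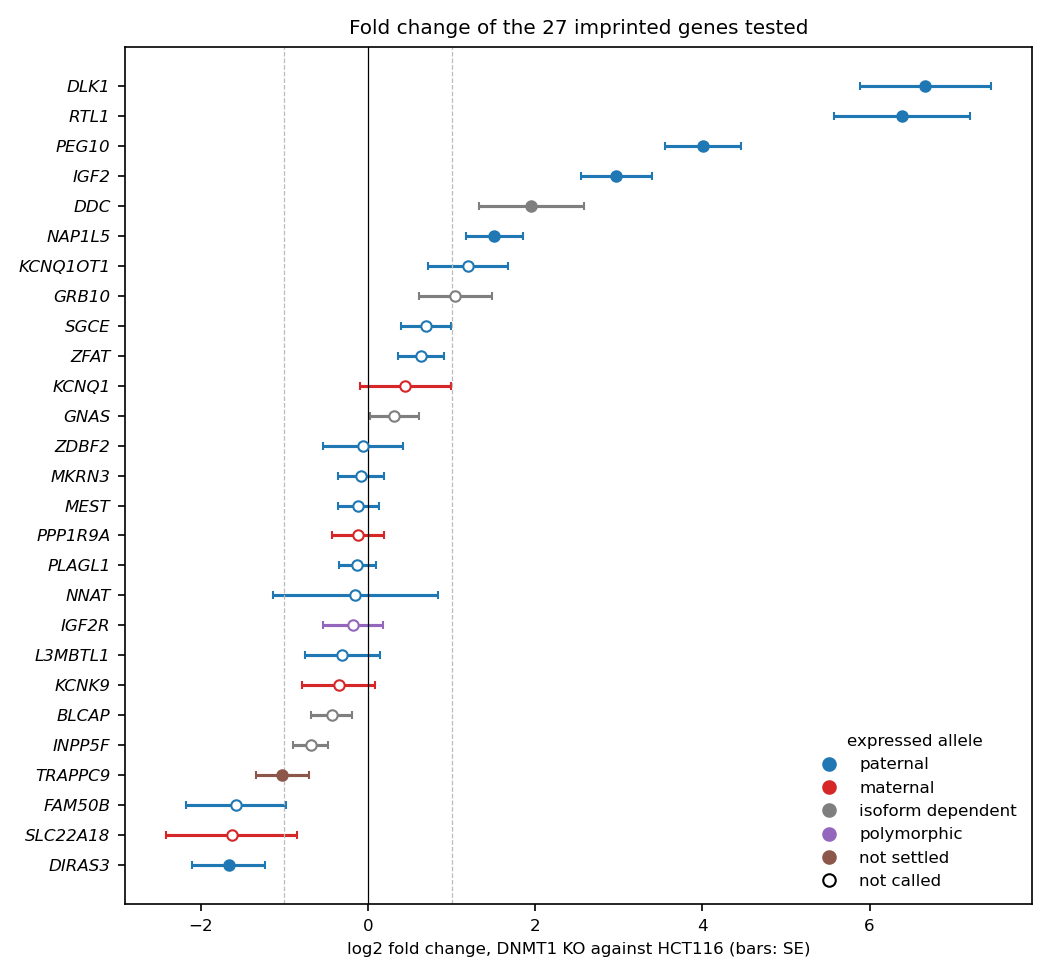
Log2 fold change of the 27 tested imprinted genes (points, bars are SE), DNMT1 KO against HCT116, coloured by expressed allele, with filled points for called genes and dashed lines at the limits of 1 and -1. DLK1 and RTL1 were highest at 6.67 and 6.38, and DIRAS3 lowest at -1.67; with library totals alone, 7 of the open points left of 0 (PPP1R9A, MKRN3, NNAT, MEST, PLAGL1, ZDBF2 and IGF2R) moved to the right of it.

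To show what kind of sequence carries these genes' starts, promoters were taken from RefSeq (GRCh38.p14, 250 bases before to 50 bases after the start). Of the 40 members, 24 had an entry, with 51 distinct promoters. The CG dinucleotides, where DNMT1 copies methylation, are in capitals. NAP1L5 (chr4:88697780-88698079, minus strand, 18 CG) is shown as a gene that rose, RTL1 (chr14:100903673-100903972, minus strand, 6 CG) as one that rose from near 0 counts and lies in a CG-poor promoter, DIRAS3 (chr1:68050578-68050877, minus strand, 21 CG) as the gene that fell in every library, and MEST (chr7:130491835-130492134, plus strand, 25 CG) as an abundant paternally expressed gene that was not called.
NAP1L5: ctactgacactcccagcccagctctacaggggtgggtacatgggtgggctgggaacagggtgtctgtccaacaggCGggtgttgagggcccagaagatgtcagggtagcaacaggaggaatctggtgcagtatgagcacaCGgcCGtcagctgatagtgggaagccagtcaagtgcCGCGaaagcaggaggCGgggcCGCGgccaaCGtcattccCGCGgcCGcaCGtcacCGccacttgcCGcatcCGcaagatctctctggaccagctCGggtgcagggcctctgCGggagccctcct
RTL1: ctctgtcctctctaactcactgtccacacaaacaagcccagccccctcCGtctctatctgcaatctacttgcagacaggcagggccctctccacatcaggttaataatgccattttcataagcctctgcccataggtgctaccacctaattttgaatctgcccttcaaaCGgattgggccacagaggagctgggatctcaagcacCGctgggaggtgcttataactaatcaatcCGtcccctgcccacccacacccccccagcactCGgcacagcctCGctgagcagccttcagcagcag
DIRAS3: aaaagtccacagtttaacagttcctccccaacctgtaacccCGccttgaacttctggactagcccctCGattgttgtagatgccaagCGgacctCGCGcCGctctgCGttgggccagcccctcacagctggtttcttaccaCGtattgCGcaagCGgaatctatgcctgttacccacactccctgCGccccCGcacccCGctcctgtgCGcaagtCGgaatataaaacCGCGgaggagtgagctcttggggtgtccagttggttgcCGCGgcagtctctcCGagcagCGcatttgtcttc
MEST: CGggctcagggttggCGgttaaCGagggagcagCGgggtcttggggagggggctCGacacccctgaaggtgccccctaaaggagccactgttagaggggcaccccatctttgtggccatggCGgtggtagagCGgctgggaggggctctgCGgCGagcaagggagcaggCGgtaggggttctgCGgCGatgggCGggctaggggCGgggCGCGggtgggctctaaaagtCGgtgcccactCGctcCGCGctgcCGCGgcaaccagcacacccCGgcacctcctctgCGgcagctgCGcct

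The motif TGCCGC, the core of the sequence that ZFP57 binds when it is methylated, was searched on both strands, and its reverse complement GCGGCA was counted where it overlapped too. It occurred 2 times in the NAP1L5 promoter, 2 times in that of DIRAS3 and 3 times in the MEST promoter shown, while the RTL1 promoter held 0. MEST has further entries, and the one shown was chosen as the one with the most copies. Its other entries held between 0 and 2 copies, with 13 to 22 CG. At least 1 copy lay in 21 of the 51 member promoters (41.2%), against 16.7% of all 35116 promoters of this length in the table. Member promoters with different starts were counted separately even where they overlap, as for MEG3, and repeated starts were dropped for the members only. By gene, 14 of the 24 members with an entry held a copy, a share that was not computed over all genes. Member promoters held a median of 18 CG against 14 over all promoters, and 41.2% held at least 20, the same share as over all promoters (41.2%). Of the 6 genes called higher, 3 had an entry, NAP1L5 with 18 CG, RTL1 with 6 CG and DDC with 3 CG in each of its entries. A match is a description of letters, not a bound site.

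At the H19/IGF2 locus of 11p15.5, IGF2, a fetal growth factor read from the paternal copy (chr11:2129112-2149603, minus strand, hg38), rose in DNMT1 KO. The HCT116 libraries ran from 0.732 to 2.75 CPM with a median of 1.39. The DNMT1 KO libraries, replicates 1 to 4, held 17.0, 18.6, 5.14 and 8.76 CPM. The groups did not overlap, and DNMT1 KO replicates 1 and 2 were well above replicates 3 and 4 (1.59 ± 0.741 against 12.4 ± 6.48 CPM, log2 fold change 2.97, SE 0.43, adjusted p = 0.000159). Within batch 1 the log2 ratio was 3.40, and in a fit of batches 1 and 2 with batch as a term it was 2.65 (adjusted p = 0.00912). In batch 2 alone it was 2.29 and missed the threshold (adjusted p = 0.0802).

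Of the exonic bases of IGF2, 75.0% are shared with exons of other genes in the annotation, among them the INS-IGF2 readthrough gene and the antisense gene IGF2-AS. Counting by gene leaves out reads that fall on exons of more than 1 gene, so the IGF2 level is a lower estimate and came from the unshared part. The same counting applied to both groups, but whether it left out the same share of IGF2 reads in each was not tested. H19, the maternally expressed long non-coding RNA next to it (chr11:1995176-2001470), had 0 counts in all 10 libraries. All of its exonic 50-base words also occur elsewhere in the supplied hg38, outside the alternate contigs, so its reads have no unique place there and a filter on mapping quality can remove them. What H19 did in these cells is therefore not known from these counts. By depth, a count of 0 allows up to 0.104 CPM in the shallowest library and 0.0349 CPM in the deepest. That limit holds only for reads with a unique place, so it sets no bound on H19.

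At 14q32.2, both paternally expressed protein-coding members rose from near 0. DLK1, a membrane protein related to the Notch ligands (chr14:100725705-100738224), had 10 counts in all of HCT116, in 3 of 6 libraries, and 737 counts in DNMT1 KO. Its levels in DNMT1 KO replicates 1 to 4 were 3.38, 2.86, 6.19 and 1.81 CPM, while no HCT116 library exceeded 0.124 CPM. The groups did not overlap, and the ratio of summed counts over summed totals was 132 (95% interval for counting error 71.5 to 277; log2 fold change 6.67, SE 0.78, adjusted p = 2.61e-05). RTL1, derived from a retrotransposon and needed in the placenta (chr14:100879753-100903722, minus strand), had 2 counts in HCT116, both in replicate 1, and 142 in DNMT1 KO, where its levels were 0.834, 0.853, 0.746 and 0.487 CPM. Those 4 libraries lay close together, and the ratio of counts was 127 (95% interval 34.6 to 1062; log2 fold change 6.38, SE 0.81, adjusted p = 5.52e-05).

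The maternally expressed MEG3, the long non-coding RNA of the same locus (chr14:100779410-100861031), had 12 counts in HCT116 and 13 in DNMT1 KO, did not pass the filter and stayed at or below 0.139 CPM in every library. The ratio of its counts was 1.94 with a 95% interval of 0.817 to 4.66, so a change of the size seen for DLK1 lies outside that interval. The libraries were counted with no strand option named, so a part of the RTL1 count may be antisense RNA, and that part was not tested. Reads on the 8.89% of its exonic bases shared with microRNA genes on the opposite strand would be left out by the counting. Within batches 1 and 2, with batch as a term, DLK1 changed by 6.21 (adjusted p = 0.00116) and RTL1 by 5.37 (adjusted p = 0.00456). Both are low in absolute terms, at 0.679 and 0.135 RPKM, that is CPM per kilobase of exon, in DNMT1 KO.

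PEG10 at 7q21.3 was the most abundant of the members that rose. It derives from a retrotransposon, is used in the placenta and shares a promoter region with its neighbour SGCE (chr7:94656325-94669695, plus strand). The HCT116 libraries ran from 13.7 to 85.9 CPM with a median of 43.96, and DNMT1 KO replicates 1 to 4 held 751, 909, 487 and 599 CPM. The groups stood far apart although HCT116 varied widely (42.6 ± 26.6 against 687 ± 183 CPM, log2 fold change 4.01, SE 0.45, adjusted p = 1.71e-05). Per length, PEG10 went from 6.38 to 103 RPKM on average, which placed it above GNAS, the other abundant member, at 64.5 RPKM in DNMT1 KO. Its change was 4.01 within batch 1, 5.56 in batch 2 alone and 5.05 across both when batch was fitted as a term (adjusted p = 0.000176).

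SGCE, the gene of epsilon-sarcoglycan, is read from the opposite strand of the PEG10 promoter region and also from the paternal copy. It was at 7.72 ± 2.63 CPM in HCT116 and 12.5 ± 3.37 CPM in DNMT1 KO, with overlapping groups, and was not called (log2 fold change 0.69, SE 0.30, adjusted p = 0.141). With batch as a term in batches 1 and 2 it was called (1.11, adjusted p = 0.0448). PPP1R9A, the gene of neurabin, maternally expressed in some tissues, was at 28.8 ± 11.3 and 26.5 ± 8.76 CPM (log2 fold change -0.12, adjusted p = 0.844). TFPI2, an inhibitor of serine proteases, had 1 count in all libraries together. Of the genes on either side of the shared start, PEG10 was called and SGCE was not, and the difference between their changes was not tested.

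**Figure D3:**
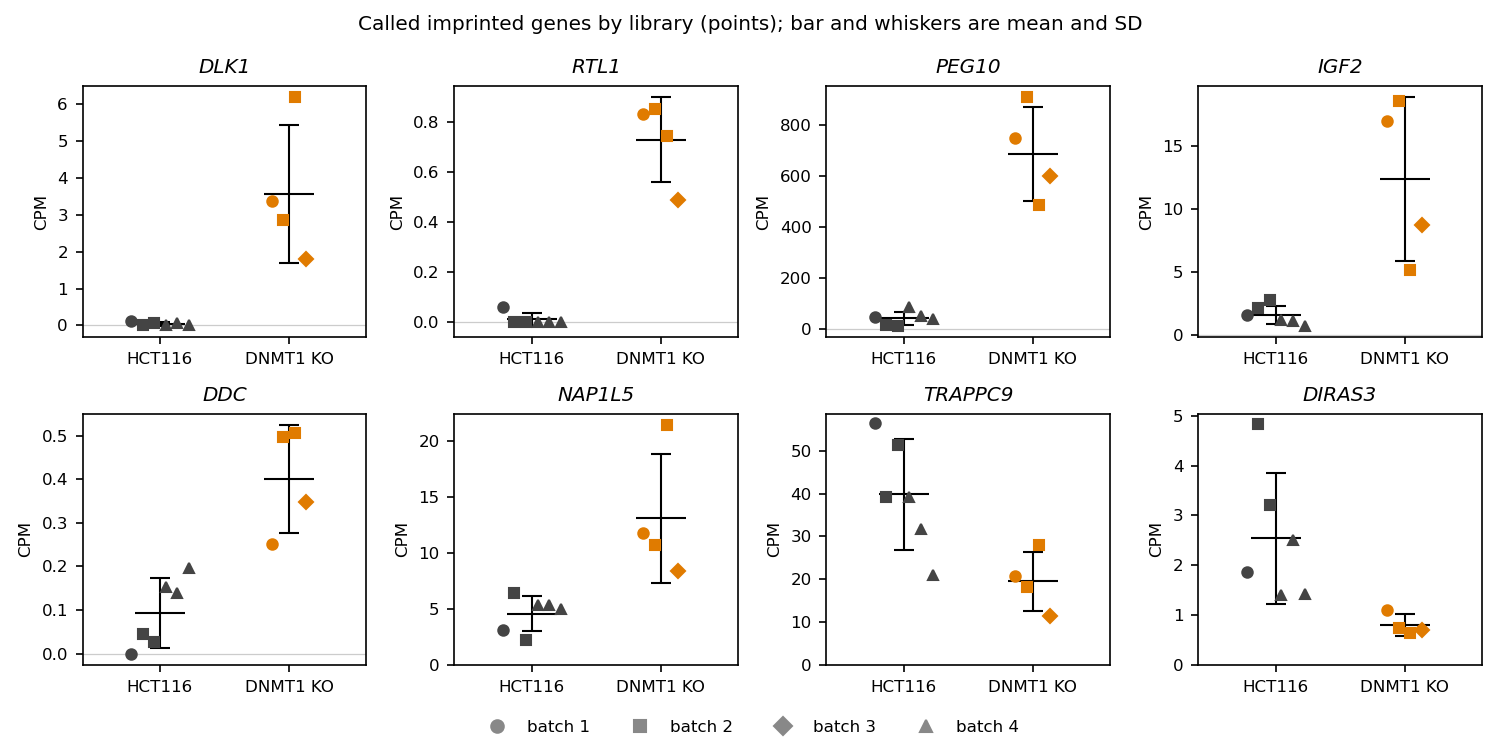
CPM of the 8 called imprinted genes in each library, HCT116 (6 points) and DNMT1 KO (4 points), with the batch as the point's shape and the mean and SD as bar and whiskers; each panel has its own linear axis. The groups were apart in every panel except that of TRAPPC9, where DNMT1 KO replicate 3 (28.0 CPM) lay above HCT116 replicate 9 (21.0 CPM).

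NAP1L5 at 4q22.1, a retrogene related to nucleosome assembly proteins that lies in an intron of HERC3 (chr4:88695915-88697829, minus strand), rose too. HCT116 ran from 2.19 to 6.41 CPM with a median of 5.17, and DNMT1 KO replicates 1 to 4 held 11.8, 10.7, 21.5 and 8.41 CPM. The groups did not overlap, with replicate 3 the highest (4.58 ± 1.58 against 13.09 ± 5.75 CPM, log2 fold change 1.51, SE 0.34, adjusted p = 0.00609). Within batch 1 and in batch 2 alone the log2 change was 1.90 each, the latter with adjusted p = 0.115. Its host HERC3 had no call (adjusted p = 0.674), while 4 of the 8 tested genes within 500 kb of NAP1L5 were called higher.

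At 7p12.1, DDC, the decarboxylase that makes dopamine and serotonin and is imprinted in an isoform-dependent way (chr7:50458436-50565405), was called higher at a very low level. HCT116 ran from 0 to 0.198 CPM with a median of 0.0923, and DNMT1 KO replicates 1 to 4 held 0.253, 0.498, 0.508 and 0.348 CPM. The groups did not overlap, but the call rested on 40 and 80 counts and was close to the threshold (log2 fold change 1.96, SE 0.63, adjusted p = 0.0469), and it was lost when any of HCT116 replicates 2, 3, 7 or 8 or any DNMT1 KO library was left out (adjusted p between 0.0538 and 0.131). It was also lost with no filter on low counts (adjusted p = 0.0683), and with the counts halved in the 9 libraries whose low counts were mostly even numbers, DDC did not pass the filter. GRB10 next to it, an adaptor that restrains insulin and IGF1 receptor signalling, was at 64.5 ± 44.6 CPM in HCT116 and 133 ± 53.0 CPM in DNMT1 KO and was not called (log2 fold change 1.05, SE 0.44, adjusted p = 0.132). Its HCT116 libraries differed by batch, with 96.9 CPM on average in batches 1 and 2 and 32.1 CPM in batch 4, and without HCT116 replicate 2 or 3 it was called higher.

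DIRAS3 at 1p31.3, a RAS-related GTPase that restrains growth and is read from the paternal copy (chr1:68045896-68051631, minus strand), was the paternally expressed member that fell. HCT116 ran from 1.39 to 4.83 CPM with a median of 2.18, and DNMT1 KO replicates 1 to 4 held 1.11, 0.746, 0.635 and 0.695 CPM. Every DNMT1 KO library was below every HCT116 library, though replicate 1 came close to the lowest (2.54 ± 1.32 against 0.797 ± 0.215 CPM, log2 fold change -1.67, SE 0.43, adjusted p = 0.0154). The change was -0.74 within batch 1 and -2.53 in batch 2 alone, and the call was lost without DNMT1 KO replicate 2 (adjusted p = 0.0518) or replicate 3 (adjusted p = 0.0538).

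TRAPPC9 at 8q24, a subunit of a complex in vesicle trafficking whose introns hold PEG13 (chr8:139727725-140458579), was called lower with overlapping groups. HCT116 ran from 21.0 to 56.4 CPM with a median of 39.2, and DNMT1 KO replicates 1 to 4 held 20.8, 18.1, 28.0 and 11.4 CPM. The change sat at the fold limit (39.8 ± 12.9 against 19.6 ± 6.88 CPM, log2 fold change -1.02, SE 0.31, adjusted p = 0.0374), and it lost its call with library totals alone (-0.80, adjusted p = 0.0975) and when any of HCT116 replicates 1, 2, 3 or 7 or DNMT1 KO replicates 1, 2 or 4 was left out (adjusted p between 0.0582 and 0.122). The call was also lost when at least 10 counts were required in every library, and in batch 2 alone (-0.97, adjusted p = 0.171). The other members of 8q24 were not called: ZFAT, a zinc finger protein, had a log2 fold change of 0.64 (adjusted p = 0.144), and KCNK9, a potassium channel read from the maternal copy, one of -0.35 (adjusted p = 0.657). PEG13, a non-coding RNA, had 5 counts in all, 4 of them in HCT116. INPP5F at 10q26.11, an inositol phosphatase, fell below the fold limit, with 71.8 ± 9.40 CPM in HCT116 and 44.6 ± 8.29 CPM in DNMT1 KO (log2 fold change -0.69, SE 0.21, adjusted p = 0.0366).

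In the KCNQ1 domain of 11p15.5, 0 of the 3 tested members were called, by edgeR or by DESeq2, and 1 of them, KCNQ1OT1, had an unadjusted p under 0.05. KCNQ1OT1, the paternally expressed antisense RNA that silences the domain in cis, was at 2.05 ± 1.44 CPM in HCT116 and 4.73 ± 1.64 CPM in DNMT1 KO (log2 fold change 1.20, SE 0.48, adjusted p = 0.110). The groups overlapped, with HCT116 replicates 3 and 9 at 3.37 and 4.30 CPM above DNMT1 KO replicate 1 at 2.88 CPM, and without HCT116 replicate 9 KCNQ1OT1 was called higher. KCNQ1, a potassium channel whose gene it lies in, had a log2 fold change of 0.45 (adjusted p = 0.646), and in batches 1 and 2 alone it was -0.086 without a batch term and -0.080 with it. The reads of KCNQ1OT1 and of unspliced KCNQ1 cannot be told apart without strand. SLC22A18, a transporter-like protein read from the maternal copy, was at 1.01 ± 0.967 CPM in HCT116 and 0.316 ± 0.115 CPM in DNMT1 KO (log2 fold change -1.63, SE 0.78, adjusted p = 0.192). Within batches 1 and 2, with batch as a term, it was called lower (-2.27, adjusted p = 0.0157).

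CDKN1C, an inhibitor of cyclin-dependent kinases, and PHLDA2, a gene that restrains placental growth, are the maternally expressed genes for which this domain is best known, and they had 4 and 0 counts in the 10 libraries. Of the 50-base words in their exons, 88.2% and 100% also occur on alternate contigs of the supplied hg38, and the shares were 86.5% for SLC22A18 and 54.4% for KCNQ1. Whether the authors' hg38 held those contigs is not stated. Of the 689 protein-coding genes with at least 90% of such words on alternate contigs, 84.6% had no counts in any library, against 14.6% of the 11917 with none. The 4 and 0 counts of CDKN1C and PHLDA2 are therefore not a measurement of an absent RNA, although CDKN1C, at 88.2%, lies just under the limit of that class. NAP1L4, a gene of the same domain outside the members, has 91.4% of its words on alternate contigs. It had 26 counts over the 6 HCT116 libraries and 14 in DNMT1 KO.

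**Figure D4:**
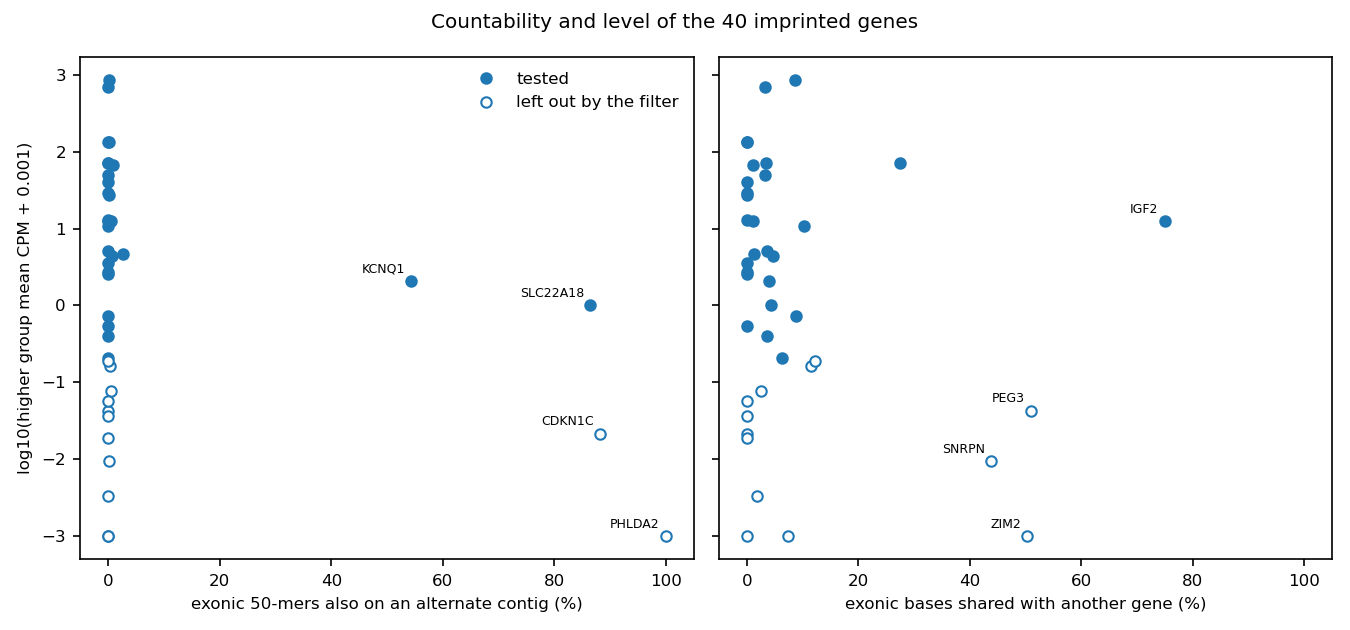
Level of the 40 imprinted genes, as log10 of the higher group's mean CPM plus 0.001, against the percent of exonic 50-base words that also occur on an alternate contig of hg38 (left) and the percent of exonic bases shared with another gene (right); open points did not pass the filter on low counts. On the left, 4 members of the KCNQ1 domain (KCNQ1, SLC22A18, CDKN1C and PHLDA2) stood apart at 54.4% to 100%, and IGF2 (75.0%), PEG3 (50.9%), ZIM2 (50.4%) and SNRPN (43.8%) on the right.

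The Prader-Willi region of 15q11.2, a paternally expressed domain whose loss causes the syndrome, gave 1 tested member. MKRN3, a ubiquitin ligase gene that holds back puberty, was at 5.12 ± 1.23 and 4.85 ± 1.03 CPM (log2 fold change -0.08, adjusted p = 0.882). SNHG14, the long host RNA of the region's small nucleolar RNAs, had 45 counts in HCT116 and 32 in DNMT1 KO, a ratio of 1.28 with a 95% interval of 0.784 to 2.05. NDN, a growth regulator of neurons, had 16 counts in 3 HCT116 libraries, all of batch 4, and 1 count in DNMT1 KO. MAGEL2, a regulator of ubiquitin ligases, had 0 counts in HCT116 and 13 in DNMT1 KO, of which 12 were in replicate 3 and 1 in replicate 4. Without DNMT1 KO replicate 3 a single count is left, so its difference rests on that library, which was also the highest of its group for PPP1R9A, L3MBTL1, GRB10 and ZDBF2. SNRPN, a splicing protein gene, had 4 counts, all in HCT116, but shares 43.8% of its exonic bases with other genes, SNURF among them, and its level cannot be read from these counts.

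PEG3 at 19q13.43, a zinc finger gene read from the paternal copy, had 0 counts in HCT116 and 9 in DNMT1 KO, in 3 of 4 libraries, and the lower 95% limit of the ratio of counts, for counting error, was 3.54. ZIM2, which shares exons with it, had 0 counts in all 10 libraries. PEG3 shares 50.9% and ZIM2 50.4% of its exonic bases with other genes, so reads from the shared exons were not assigned to either. Without the filter on low counts, MAGEL2 (adjusted p = 0.0438) and PEG3 (adjusted p = 0.0499) were also called higher, on 13 and 9 counts.

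The remaining loci held 0 called members. GNAS at 20q13.32, the stimulatory G protein subunit and the most abundant member in HCT116, was at 690 ± 269 and 859 ± 138 CPM (log2 fold change 0.32, adjusted p = 0.537), and the counts do not separate its imprinted isoforms from the main biallelic one. MEST at 7q32.2, paternally expressed in early development, was at 72.2 ± 19.4 and 66.8 ± 11.5 CPM (log2 fold change -0.11, SE 0.24, adjusted p = 0.812). PLAGL1 at 6q24.2, a zinc finger regulator of other imprinted genes, was at 49.6 ± 11.3 and 45.4 ± 6.62 CPM (log2 fold change -0.13, SE 0.22, adjusted p = 0.765). IGF2 and PEG10 changed by 2.97 and 4.01, and the differences from MEST and PLAGL1 were not tested. HYMAI, the non-coding RNA inside PLAGL1, had 82 counts in HCT116 and 28 in DNMT1 KO, a ratio of 0.612 with a 95% interval of 0.384 to 0.951 for counting error, but HCT116 replicate 9 held 56 of the 82 counts. Without that library the ratio turned to 1.44 (95% interval 0.812 to 2.55).

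Of the other members, ZDBF2 at 2q33.3, a zinc finger protein, had a log2 fold change of -0.06 (adjusted p = 0.952) with HCT116 between 9.71 and 56.9 CPM. IGF2R at 6q25.3, the receptor that clears IGF2, had one of -0.18 (adjusted p = 0.795). BLCAP, the host of NNAT at 20q11.23, had one of -0.43 (adjusted p = 0.275), and NNAT, a neuronal membrane protein, one of -0.15 with an SE of 0.99 on 78 and 39 counts. L3MBTL1 at 20q13.12, a reader of methylated histones, had one of -0.30 (adjusted p = 0.714). FAM50B at 6p25.2, a retrogene, was at 0.537 ± 0.275 CPM in HCT116 and 0.177 ± 0.130 CPM in DNMT1 KO, with overlapping groups (log2 fold change -1.58, SE 0.59, adjusted p = 0.0914).

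HCT116 libraries also differed between batches. Between batch 4 and batches 1 and 2, 23 members could be tested within HCT116 and 3 were called, all lower in batch 4, where 8.03% of all 18656 genes tested were called in either direction. They were SLC22A18 (1.80 CPM in batches 1 and 2, 0.211 CPM in batch 4, log2 fold change -3.12, adjusted p = 0.00763), KCNQ1 (2.52 and 0.570 CPM, -2.17, adjusted p = 0.0166) and GRB10 (96.9 and 32.1 CPM, -1.61, adjusted p = 0.0216). None of these 3 was called between DNMT1 KO and HCT116, and none of the 8 that were called there was called between the HCT116 batches, where DLK1, RTL1 and DDC were not tested. This count ran from 1 to 7 when single HCT116 libraries were left out, with 7 without replicate 1 and 1 without replicate 2, 7 or 9.

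A wider list of 46 genes outside the members held other imprinted genes together with genes of the imprinted regions, which need not be imprinted themselves. Of these, 22 were tested, and 1 was called higher and 3 lower (7.42% and 6.49% of all genes tested). Their median log2 fold change was -0.04. The gene that rose was ASB4, an adaptor for ubiquitin ligases at 7q21.3 (chr7:95478444-95540233), at 0.204 ± 0.140 CPM in HCT116 and 8.69 ± 3.11 CPM in DNMT1 KO (log2 fold change 5.43, SE 0.64, adjusted p = 2.76e-05). It lies on the same arm as PEG10 but further away than PPP1R9A, which was not called. The genes that fell were CPA4, a carboxypeptidase gene at 7q32 near MEST (51.3 ± 18.9 against 1.65 ± 1.71 CPM, log2 fold change -4.997, adjusted p = 2.79e-05), ANO1, a chloride channel (79.5 ± 42.2 against 2.74 ± 1.12 CPM, -4.86, adjusted p = 2.39e-06), and OSBPL5, a lipid transfer protein gene at 11p15.5 (26.3 ± 8.03 against 8.73 ± 2.63 CPM, -1.59, adjusted p = 0.00218). Near MEST, CPA4 fell while MEST had no call, and at 7q21.3, ASB4 and PEG10 rose while SGCE and PPP1R9A had no call, and these differences between neighbours were not tested.

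Among 26 genes that set, protect or remove imprint methylation, 17 were tested, 2 were called higher and 0 lower (7.42% and 6.49% of all genes tested), with a median log2 fold change of 0.31. CTCFL, the germ-line relative of the insulator protein CTCF, went from 0.122 ± 0.129 to 16.6 ± 2.10 CPM (log2 fold change 6.88, SE 0.65, adjusted p = 3.24e-06), and TET1, which oxidises methylated cytosine, from 5.29 ± 1.69 to 18.1 ± 2.83 CPM (1.77, SE 0.28, adjusted p = 0.000366). ZNF445, a zinc finger protein that protects imprints, was below the fold limit at 0.85 (adjusted p = 0.0317). ZFP57 had 0 counts in all libraries, and all of its exonic 50-base words also occur on alternate contigs. On the lower side, 1 gene of the list, DNMT3B, had an unadjusted p under 0.05 in edgeR, and DESeq2 called 0.

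Within 500 kb of the 8 called genes, with members left out, 47 genes were tested, of which 12 were called higher and 1 lower, beside 7.42% and 6.49% of all genes tested. Counts near a single called gene keep the other members. By these, 4 of 12 tested genes near IGF2 and 4 of 8 near NAP1L5 were called higher. Near PEG10 it was 0 of 3, with the members SGCE and PPP1R9A among the 3. Near TRAPPC9 it was 0 of 7, with KCNK9 among them, and the 12 near IGF2 include KCNQ1 and KCNQ1OT1. Markers of other cell types moved between the groups as well. The summed level of 7 colon epithelium markers (EPCAM, KRT8, KRT18, KRT19, CDH1, CLDN4 and CLDN7), 6 of them called lower, was 2847 to 6807 CPM in HCT116 and 739 to 1539 CPM in DNMT1 KO. The sum of 7 mesenchymal markers was 12.2 to 22.4 CPM and 575 to 942 CPM. VIM made up most of the sum in DNMT1 KO and COL1A1 in HCT116. Of the 5 tested, VIM, COL3A1 and LUM were called higher, while COL1A1 (log2 fold change -0.90, adjusted p = 0.183) and ACTA2 (-1.47, adjusted p = 0.0801) were not called. The sum of 5 leukocyte markers was at most 0.588 and 2.72 CPM. For the placenta, where PEG10 and RTL1 are used, the sum of 4 trophoblast markers was at most 0.562 CPM in HCT116 and 0.555 CPM in DNMT1 KO, with CGA and HLA-G at 0 throughout, HLA-G having 95.7% of its words on alternate contigs. The sum of 3 germ cell markers was at most 0.0695 CPM. The part of these shifts in the imprinted genes' levels was not tested.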

How the data were processed

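Poly(A)-selected RNA of HCT116 and DNMT1 KO cells was sequenced as paired ends, 10 libraries in all. Per the study's methods and the submitters' processing notes, the authors trimmed reads with Trim Galore 0.4.1, checked them with FastQC 0.11.4, aligned them with Bowtie2 (hg38), an aligner that cannot place reads over exon junctions, removed reads of low mapping quality and assigned exonic reads to Ensembl genes with featureCounts, for which no strand setting is given. What was deposited is 1 table of unnormalized counts for each library. HCT116 replicates 4 to 6, in 3 more tables, are missing from the sample list used here and were left out.

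From these counts, CPM on TMM-scaled totals and differential expression were computed in R 4.3.3 with edgeR 4.0.16 (default filterByExpr, two-sided quasi-likelihood F test from glmQLFit and glmQLFTest with no covariate beside the group, Benjamini-Hochberg adjustment). SE is the absolute log2 fold change over the root of its F statistic. RPKM divides CPM by the exon length in the tables. The test was also run on simulated counts with the same dispersion for all genes, no batches and no paired counts. That run does not show how the test performs on libraries that differ by batch, as these do. DESeq2 1.42.0, other scalings and filters, fits within batches, halved counts and leaving out single libraries were alternatives.

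The 40 members, the wider list of imprinted genes and genes of their regions, and the list of maintenance genes were chosen with earlier results of these data known. All members are reported. Values in every library are given for those called or not overlapping between groups, and of the other lists the called genes are named, at most 5 in each direction.

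Gene coordinates and exons are those given with the deposited counts, on hg38, and promoters are from RefSeq. GENCODE release 44 was used only to tell which genes are protein-coding. For each gene, the share of 50-base exonic words that recur on alternate contigs or elsewhere in hg38, and the share of exonic bases that belong to a further gene, were computed. Among genes with 1 to 10 counts, 64.4 to 70.0% of values were even in 9 libraries, against 39.9% in DNMT1 KO replicate 4, so counts of those 9 may come in mate pairs. Intervals and the limit of 3 counts cover counting error only and treat each count as independent. Deviations of same-numbered libraries from their group means correlated at 0.42, -0.18 and 0.36, so replicate numbers were not taken to pair the groups.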

Additional observations from a re-analysis of the deposited data

Results flagged for a closer look

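In 7 of 56 sets of values (the 27 tested members and DNMT1, in each group) a single library was separated from the others by more than Dixon's 95% limit allows, where chance gives about 1 in 20, or 2.8. DNMT1 KO replicate 3 was the library in 4 of them. It held 39.6 CPM of PPP1R9A against 21.4 to 22.9 in the other 3 libraries of its group, 6.68 CPM of L3MBTL1 against 2.10 to 2.79, 212 CPM of GRB10 against 99.7 to 113 and 53.2 CPM of ZDBF2 against 15.8 to 18.2. All 4 were the highest value of the group, and none of these genes was called.

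DNMT1 KO replicate 1 held the highest MEST level, 83.8 CPM, where the other 3 ran from 58.4 to 62.5. In HCT116, replicate 9 held 7.53 CPM of MKRN3 against 4.22 to 5.13 in the other 5 libraries. RTL1 was at 0.0619 CPM in HCT116 replicate 1, where 2 counts fell, and at 0 in the other 5.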

How the results depend on the processing

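DLK1, RTL1 and PEG10 kept their call under every alternative that tested them. Requiring at least 10 counts in every library left 3 members called higher and 1 lower. DLK1, RTL1 and DDC then had too few counts to be tested, while TRAPPC9 was tested and lost its call. The same requirement left 0 genes of the wider list and 1 maintenance gene called higher. With library totals alone 1 member was called lower. In that setting 2 genes of the wider list were called higher, as also with no filter, with DESeq2 and in batch 2 alone (the last chosen after seeing the data). Leaving out single libraries gave 0 to 2 members lower (0 without DNMT1 KO replicate 2, and 1 without HCT116 replicate 1, 2, 3 or 7 or DNMT1 KO replicate 1, 3 or 4). It also gave 1 to 2 genes of the wider list higher, and 1 to 7 members between the HCT116 batches. With the replicate number as a block in replicates 1 to 3, 6 members were called higher and 3 lower, SLC22A18 being the added one. The fold changes of members not called that turned sign were, with library totals alone, 0.092 for PPP1R9A, 0.11 for MKRN3, 0.022 for NNAT, 0.10 for MEST, 0.074 for PLAGL1, 0.15 for ZDBF2 and 0.030 for IGF2R; with batch as a term in batches 1 and 2, -0.080 for KCNQ1, 0.23 for MEST and 0.042 for PLAGL1; without that term, -0.086 for KCNQ1, 0.21 for MEST and 0.053 for PLAGL1; with the replicate block, -0.087 for KCNQ1, 0.24 for MEST and 0.053 for PLAGL1; in batch 2 alone, -0.14 for KCNQ1, 0.27 for NNAT, 0.0023 for L3MBTL1 and 0.32 for MEST. Leaving out single libraries turned PPP1R9A (-0.36 to 0.10), MKRN3 (-0.24 to 0.063), NNAT (-0.38 to 0.25), ZDBF2 (-0.66 to 0.30) and IGF2R (-0.34 to 0.029). The causes were not tested. Counts limit what can be said of the 13 untested members.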
